A study of Mus musculus with 17 samples.

Results

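The genes described here are 10 markers of blood vessels, of the mural cells that wrap them and of fibroblasts, out of 36271 genes listed in the deposited count tables. They were chosen by name, with no measured value in the rule, but with earlier results of these data known. The members are endothelial (Flt1, Kdr, Cldn5, Pecam1), mural (Acta2, Tagln, Pdgfrb, Vtn) and fibroblast genes (Dcn, Lum). All 10 were found, with 10 listed in each table except that of the ADM experiment, which listed 9 (Cldn5 is not analysed there). RNA was sequenced from 14 libraries of C57BL/6 mouse primary neurons and 3 libraries of C57BL/6 mouse hippocampus, at a depth of 14.62 to 19.14 M counts each. Neurons were cultured in 7 groups, each with 2 libraries: ADM treatment and its control, a first set (set 1) of ApoE particle treatment and its control, and a second set (set 2) of control, ApoE particle and reconstituted ApoE particle treatment. The hippocampus groups hold 1 library each, either with control shRNA (one library without FC and one with FC) or with ApoE shRNA and FC. The labels spell out neither ADM nor FC, and give no age, dose, time or route for any group. They do not say whether the 2 libraries of a neuron group came from separate cultures, so each p-value measures the spread between these samples only, which may be technical.

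Endothelial cells line the vessel wall. Flt1 and Kdr encode the VEGF receptors through which growth factor from the tissue reaches these cells, Cldn5 the tight junction protein that seals the blood-brain barrier, and Pecam1 an adhesion molecule of the junctions that blood cells also carry. Mural cells are the pericytes of capillaries and the smooth muscle of larger vessels: Pdgfrb encodes the receptor that draws them to the endothelium, Vtn the matrix protein vitronectin that brain pericytes secrete, and Acta2 and Tagln an actin and an actin-binding protein of contractile cells. Fibroblasts of the meninges and of larger vessels secrete decorin (Dcn) and lumican (Lum), small leucine-rich proteoglycans that bind collagen fibrils. A dissociated neuron culture has no blood flow, and none of these genes is used by a single cell type alone. In RNA from a whole culture or tissue, fewer cells of a type and less RNA per cell cannot be told apart.

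The RefSeq promoter table (GRCm38.p6) held 5 of the 10 genes. The 250 bases before the start are printed for the 2 endothelial genes whose windows contain no annotated exon, because Flt1 moved with treatment in cultured neurons while Cldn5 stayed at or near 0 there. Capitals mark matches, on either strand, to TATAAA (the TATA box) and to GGGCGG (the core of the GC box, which reads CCGCCC on the other strand).
Flt1, chr5:147726012-147726261, minus strand: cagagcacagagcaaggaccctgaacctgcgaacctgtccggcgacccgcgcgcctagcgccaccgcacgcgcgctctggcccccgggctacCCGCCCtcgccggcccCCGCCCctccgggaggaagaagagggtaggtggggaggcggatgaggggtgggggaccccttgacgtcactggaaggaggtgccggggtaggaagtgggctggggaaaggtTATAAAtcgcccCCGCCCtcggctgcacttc
Cldn5, chr16:18776597-18776846, plus strand: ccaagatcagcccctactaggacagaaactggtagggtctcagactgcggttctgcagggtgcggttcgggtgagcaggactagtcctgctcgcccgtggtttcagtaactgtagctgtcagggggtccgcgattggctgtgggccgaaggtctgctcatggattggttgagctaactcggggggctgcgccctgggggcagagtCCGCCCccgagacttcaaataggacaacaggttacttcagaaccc
The Flt1 window has a GC content of 70.4% and holds a TATAAA at positions −31 to −26 from the start and 3 matches to GGGCGG. The Cldn5 window has a GC content of 59.6%, 1 match to GGGCGG at −45 to −40 and no TATAAA. Across 32851 promoters of this length the median GC content was 52.4%, 12.4% held TATAAA and 32.7% held GGGCGG. The CArG box, to which serum response factor binds, was searched on both strands as well: it occurs in 1.47% of all promoters and is not in either printed window.

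The coordinates in the files are those of mm10. Flt1 (ENSMUSG00000029648) spans 147561604 to 147726011 on the minus strand of chromosome 5, and Kdr (ENSMUSG00000062960) 75932827 to 75978458 on the same strand. Cldn5 (ENSMUSG00000041378) spans 18776847 to 18778260 on the plus strand of chromosome 16, and Pecam1 (ENSMUSG00000020717) 106654217 to 106750628 on the minus strand of chromosome 11. Acta2 (ENSMUSG00000035783) lies at 34241090 to 34255336 on the minus strand of chromosome 19, Pdgfrb (ENSMUSG00000024620) at 61045150 to 61085061 on the plus strand of chromosome 18, and Vtn (ENSMUSG00000017344) at 78499091 to 78502324 on the plus strand of chromosome 11. Tagln (ENSMUSG00000032085) lies at 45929619 to 45936058 on the minus strand of chromosome 9, where 67.9% of its exon bases are also exon of genes on the other strand (Pcsk7 and Gm48529). The strand setting of the counting is not given in the sources used here, so reads of Tagln and of these antisense genes could not be told apart, and its values are uncertain. Acta2 has near-identical actin relatives that could also share reads with it. Dcn (ENSMUSG00000019929) at 97479609 to 97518143 and Lum (ENSMUSG00000036446) at 97565128 to 97572703 are neighbours on the plus strand of chromosome 10, 47.0 kb apart. With Kera and Epyc, which encode other proteoglycans of the same family, they stand in the order Dcn, Lum, Kera, Epyc within 203 kb.

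Levels are given in CPM, a gene's counts scaled to the total of its library. The vessel-defining genes were far lower in the neuron cultures than in hippocampus. Cldn5 had 0 counts in 8 of the 10 neuron libraries that list it, which allows a level of up to 0.190 CPM (3 counts in a library, counting error only). The remaining libraries had 1 count (set 2 ApoE particle library 1) and 2 counts (set 2 reconstituted particle library 2). In hippocampus Cldn5 had 39.6 CPM in the control shRNA library without FC, 26.8 in that with FC and 16.7 in the ApoE shRNA library. Pecam1 ran from 0.536 to 1.49 CPM in the 14 neuron libraries (median 0.952) and from 20.2 to 26.6 in hippocampus. Flt1 ran from 0.236 to 4.79 CPM in neurons (median 0.887) and from 42.4 to 97.7 in hippocampus. Vtn stood between 0.0684 and 1.74 CPM in neurons and between 55.2 and 76.9 in hippocampus, and Dcn between 0.413 and 15.4 against 25.4 to 54.4. For these 5 genes no neuron library reached a hippocampus library.

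The other members overlapped between culture and tissue. Kdr ran from 0.684 to 83.2 CPM in neurons (median 11.9) and from 9.21 to 20.8 in hippocampus. Acta2 ran from 1.37 to 853 CPM in neurons with a median of 63.7, above the 12.2 to 14.9 CPM of hippocampus. Pdgfrb ranged from 4.01 to 26.8 CPM in neurons and from 22.5 to 30.9 in hippocampus, and Lum from 0.0589 to 3.21 against 1.85 to 2.92. Tagln stayed at or below 1.43 CPM in all 17 libraries. Each experiment has its own table, so these differences between experiments are described and not tested.

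The order of the genes differed too. On the scale of CPM per kilobase of exon, which allows genes to be compared, the neuron medians put Acta2 first at 29.0, then Pdgfrb at 1.47, Kdr at 1.32, Vtn at 0.409, Dcn at 0.311, Lum at 0.178, Pecam1 at 0.153, Tagln at 0.103, Flt1 at 0.0657 and Cldn5 at 0. Pdgfrb and Kdr, next to each other in this order, overlapped widely (0.732 to 4.88 and 0.0757 to 9.21), and so did Vtn, Dcn and Lum. In hippocampus the order of the medians was Vtn at 36.6, Cldn5 at 18.9, Dcn at 8.30, Acta2 at 5.84, Flt1 at 5.66, Pdgfrb at 5.09, Pecam1 at 3.54, Kdr at 1.36, Lum at 1.12 and Tagln at 0.0266. Here the ranges of Dcn, Acta2, Flt1 and Pdgfrb overlapped. The ratio of the 2 VEGF receptors per kilobase, Kdr over Flt1, was 0.188 to 0.407 in hippocampus, so that Flt1 exceeded Kdr in all 3 libraries. In the neuron libraries the ratio had a median of 26.3, and ADM library 1 was the only one below 1, at 0.214. The contractile gene Acta2 stood at 1.04 to 1.35 times the pericyte receptor Pdgfrb per kilobase in hippocampus, and at 0.700 to 119.9 times in neurons.

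**Figure D1:**
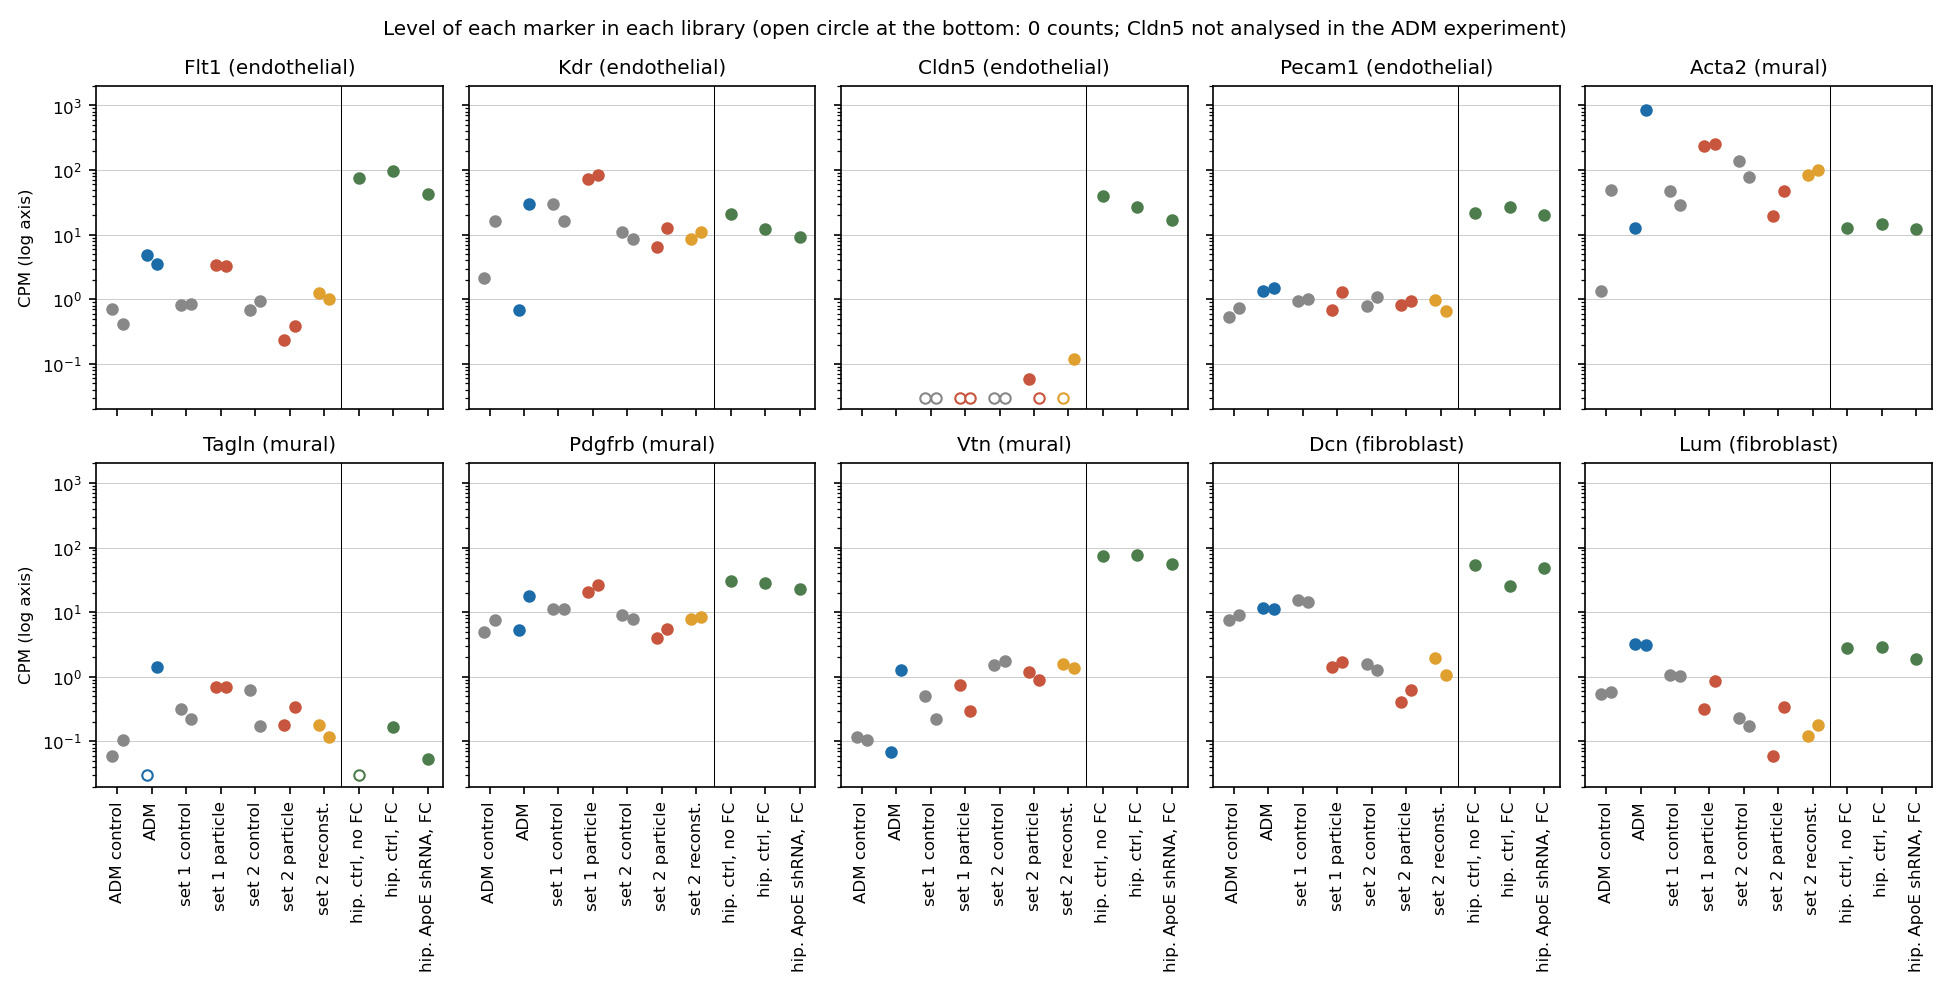
Level of each of the 10 markers in CPM (log axis) in each library; each point is 1 library, the vertical line separates the 14 neuron libraries from the 3 hippocampus libraries, and open circles mark 0 counts. Cldn5 is at or near 0 in neurons and at 16.7 to 39.6 CPM in hippocampus, while Acta2 spans 1.37 to 853 CPM in neurons.

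Other genes that define these cells were checked in the cultures, and those given here were singled out after their values were seen. The endothelial genes Cdh5, which encodes the cadherin of endothelial junctions, and Tie1, an endothelial receptor kinase, had at most 4 counts and 1 count in the set 1 and set 2 libraries, where hippocampus had 204 to 374 and 179 to 275. Cdh5 reached 28 counts in ADM library 2. The pericyte channel gene Kcnj8 had 0 to 2 counts in neurons and 43 to 64 in hippocampus, and the smooth muscle myosin Myh11 had 5 to 34 counts against 171 to 234. Mfsd2a and Itm2a, listed as endothelial genes, did not follow these: they stood at 6.95 to 52.2 and 8.81 to 30.4 CPM in neurons, overlapping the 20.3 to 34.9 and 22.8 to 43.3 CPM of hippocampus. The contractile genes summed, Myh11 included, did not follow Myh11: they stood at 177 to 1342 CPM in neurons, overlapping the 330 to 333 CPM of hippocampus. In the neuron cultures, endothelial, mural and fibroblast are used as names of gene lists.

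In set 1, neurons given the ApoE particle were compared with the controls of the same set; ApoE is the lipid carrier that astrocytes secrete. The VEGF receptor genes and the mural genes Acta2 and Pdgfrb rose and Dcn fell: of the 8 members tested, 4 rose and 1 fell. The background was high, with 36.4% of 16475 genes called (edgeR quasi-likelihood test, adjusted p under 0.05), 18.9% higher and 17.4% lower. The median log2 fold change of the 8 was 1.12, against −0.01 over all genes. Higher and lower calls numbered 3119 and 2874, and 3832 and 2009 when libraries were scaled by their totals alone.

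Acta2, the actin of contractile cells, stood at 47.7 and 28.4 CPM in the set 1 controls and at 234 and 252 CPM with the particle. The libraries did not overlap, and the fold was 5.97 (log2 fold change 2.58 ± 0.20, SE, edgeR adjusted p = 7.01e-05). Pdgfrb had 11.06 and 11.02 CPM in the controls and 20.3 and 26.8 with the particle (0.99 ± 0.16, edgeR adjusted p = 0.000532). Tagln, with 5 and 4 counts in the controls and 11 and 12 with the particle, had the same direction and missed the threshold (1.25 ± 0.57, edgeR adjusted p = 0.115). Vtn had 4 to 12 counts per library and was not tested.

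Among the endothelial genes, Kdr had 29.7 and 16.3 CPM in the controls and 71.6 and 83.2 with the particle, a 3.16-fold difference (1.66 ± 0.24, edgeR adjusted p = 0.00172). Flt1 was much scarcer, with 13 and 15 counts in the controls and 54 and 57 with the particle. Its fold of 3.73 (1.90 ± 0.32, edgeR adjusted p = 0.00087) was accordingly less precise. Pecam1 had 15 and 18 counts in the controls and 11 and 22 with the particle (−0.08 ± 0.44, edgeR adjusted p = 0.910), and Cldn5 had 0 in all 4 libraries. The 2 receptors for VEGF rose, while Pecam1, at few counts, overlapped between groups and Cldn5 was not detected in either. Of 9 other endothelial genes tested in these libraries, 4 rose and 0 fell.

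Of the fibroblast members, Dcn fell and Lum did not pass the test. Dcn had 243 and 253 counts in the controls, or 15.4 and 14.3 CPM, and 22 and 29 counts with the particle, or 1.39 and 1.69 CPM. This was a 10.2-fold difference (−3.36 ± 0.21, edgeR adjusted p = 1.91e-06). Its neighbour Lum had 17 and 18 counts in the controls and 5 and 15 with the particle (−0.88 ± 0.51, edgeR adjusted p = 0.209). Kera, given with Epyc for its position as the next gene of the same cluster and a proteoglycan best known from the cornea, fell from 2.29 ± 0.52 to 0.489 ± 0.114 CPM (SD, n = 2; −2.31 ± 0.42, edgeR adjusted p = 0.00133). Epyc at the end of the cluster had −0.75 ± 0.51 (edgeR adjusted p = 0.286).

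The proteoglycans outside this cluster did not share the direction of Dcn. Of 7 other small leucine-rich proteoglycans tested in set 1, 5 rose and 1 (Kera) fell, with a median of 1.37. The 7 include Kera and Epyc of the cluster, and the 5 that rose are those outside it. Among the 5 were Prelp, from 25.7 ± 5.25 to 70.8 ± 7.15 CPM (1.37 ± 0.13), and Fmod, which encodes fibromodulin, from 12.7 ± 4.38 to 59.5 ± 7.93 CPM (2.14 ± 0.19). Of 9 other fibroblast genes 4 rose and 1 fell (median 0.58). Col1a1, a chain of fibrillar collagen I, went from 5.95 ± 0.37 to 28.1 ± 0.73 CPM (2.13 ± 0.14), and Fbln1 had 0.58 ± 0.12. The receptor gene Pdgfra, named because it was the 1 that fell, had −0.71 ± 0.23.

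Contractile genes moved with Acta2: of 9 tested, 7 rose and 0 fell, with a median of 1.98. Cald1, which encodes the actin-binding caldesmon, rose from 51.7 ± 6.00 to 218.5 ± 13.04 CPM (1.98 ± 0.10), and the myosin light chain gene Myl9 from 7.23 ± 2.56 to 34.2 ± 3.82 CPM (2.15 ± 0.19). Of 4 other mural genes 2 rose, the proteoglycan Cspg4 (1.71 ± 0.19) and the receptor Notch3 (0.85 ± 0.11). Of 9 other endothelial genes 4 rose. By adjusted p the first were Mfsd2a, the lipid transporter (1.79 ± 0.14), and Itm2a (0.92 ± 0.15), which had the smallest fold of the 4. All 7 genes of TGF-beta ligands and receptors rose (median 1.24), among them Tgfbr2 (1.79 ± 0.13) and Tgfb3 (1.29 ± 0.16). Of 13 genes for VEGF, angiopoietin and PDGF ligands and their receptors, 2 rose and 1 fell, no more than the 18.9% and 17.4% of all genes. Angpt1 had 0.67 ± 0.10, and Vegfa, which encodes the ligand of Flt1 and Kdr, fell from 88.4 ± 1.92 to 50.7 ± 0.99 CPM (−0.91 ± 0.09).

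Markers of other cells moved in the same set 1 libraries. Of 11 microglia genes 10 rose, and their summed level was 89.95 to 106 CPM in the controls and 353 to 361 with the particle. All 12 genes of proliferating cells rose (229 to 262 CPM summed in the controls, 734 to 846 with the particle). Of 11 astrocyte genes 8 rose and 1 fell (3547 to 3948 and 5110 to 5305 CPM), and of 10 neuron genes 9 fell. Of 4 choroid plexus genes 3 rose, Otx2, Folr1 and Ttr (17.5 to 31.9 CPM summed in the controls, 66.0 to 67.8 with the particle). The vessel lists themselves were higher in sum: other endothelial genes went from 25.8 to 32.8 CPM in the controls to 71.0 to 78.5 with the particle, and other mural genes from 34.1 to 35.2 to 65.8 to 80.3. The endothelial sum includes Mfsd2a and Itm2a, and their part in it was not separated. The pericyte gene Kcnj8 was at 0 in all 4 libraries and the endothelial gene Cdh5 in both particle libraries. Both were named after their values were seen. In their lists, 4 of 9 other endothelial genes tested and 2 of 4 other mural genes rose, and 0 fell. The part of any of these cells in the rises of Acta2, Kdr, Flt1 and Pdgfrb was not tested.

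In set 2 the treatment of the same name gave another picture: 2 of the 7 members tested fell, Pdgfrb and Dcn, and 0 rose. Here 22.1% of 16388 genes were called, with 12.1% of the 16388 lower. The median of the 7 members was −0.81 (all genes 0.00). The controls of set 2 are also the controls of the reconstituted particle, so the 3 groups are given side by side.

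Pdgfrb had 8.89 and 7.82 CPM in the set 2 controls, 4.01 and 5.51 with the ApoE particle and 7.76 and 8.31 with the reconstituted particle. Both particle libraries lay below all others, and the difference from control was −0.81 ± 0.20 (edgeR adjusted p = 0.00402). Without particle library 1 it missed the threshold (−0.61, adjusted p = 0.0852). Acta2 had 139 and 78.6 CPM in the controls, 19.2 and 47.3 with the particle and 84.5 and 100.03 with the reconstituted particle. The particle libraries were again the lowest, but the spread within groups was wide and the difference of −1.71 ± 0.59 missed the threshold (edgeR adjusted p = 0.165; DESeq2 adjusted p = 0.0265). Vtn had 27 and 30 counts in the controls and 20 and 16 with the particle (−0.66 ± 0.41, edgeR adjusted p = 0.281), and Tagln had 2 to 11 counts per library and was not tested.

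Flt1 had 12 and 16 counts in the set 2 controls, 4 and 7 with the particle and 21 and 17 with the reconstituted particle. Its difference between particle and control was −1.33 ± 0.62 (edgeR adjusted p = 0.132). Kdr showed none of this order, with 10.9 and 8.46 CPM in the controls, 6.37 and 12.7 with the particle and 8.61 and 11.1 with the reconstituted particle (−0.02 ± 0.31 for particle against control). Pecam1 had 11 to 19 counts in each of the 6 libraries (−0.09 ± 0.50).

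Dcn was scarce in set 2 from the start, with 28 and 22 counts in the controls, 7 and 11 with the particle and 32 and 18 with the reconstituted particle. The fall with the particle was −1.46 ± 0.51 (edgeR adjusted p = 0.0418). When 1 library was left out the log2 fold change stayed between −1.77 and −1.22, and it missed the threshold without control library 1 (adjusted p = 0.202), control library 2 (0.0732), particle library 1 (0.199) or particle library 2 (0.0624). Lum had 1 to 6 counts per library and was not tested.

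Reconstituted particle and control did not differ at the threshold for any member or gene. Of the 7 members tested 0 were called, as were 0% of 16388 genes, where 776 genes had an unadjusted p under 0.05 and DESeq2 called 0. Log2 fold changes ran from −0.22 ± 0.54 (Acta2) to 0.52 ± 0.51 (Flt1), with Pdgfrb at −0.04 ± 0.19 and Dcn at 0.08 ± 0.44 (edgeR adjusted p = 0.9995 for each). The width of these errors leaves room for sizeable differences in the scarce genes.

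Set against the ApoE particle, the reconstituted particle libraries were higher in 3 of 7 members and lower in 0, with 20.3% of genes called (11.4% higher, 8.88% lower). Pdgfrb differed by 0.77 ± 0.20 (edgeR adjusted p = 0.00681), Dcn by 1.55 ± 0.51 (0.0334) and Flt1 by 1.85 ± 0.59 (0.0286). With 1 library left out the log2 differences ranged from 0.57 to 1.01 for Pdgfrb, 1.05 to 1.91 for Dcn and 1.54 to 2.25 for Flt1, with the direction kept. Pdgfrb missed the threshold without reconstituted library 2 (adjusted p = 0.058) or particle library 1 (0.123). Dcn missed it without reconstituted library 1 (0.317) or particle library 1 (0.173), and in DESeq2 (0.10). Flt1 missed it without any 1 of the 4 libraries, with adjusted p of 0.161 and 0.0762 (reconstituted 1 and 2) and 0.20 and 0.0672 (particle 1 and 2). Acta2 had 1.49 ± 0.59 (edgeR adjusted p = 0.219), Vtn 0.52 ± 0.42, Kdr 0.06 ± 0.32 and Pecam1 −0.12 ± 0.51; Kdr passed the threshold without particle library 2 (0.64, adjusted p = 0.0475).

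**Figure D2:**
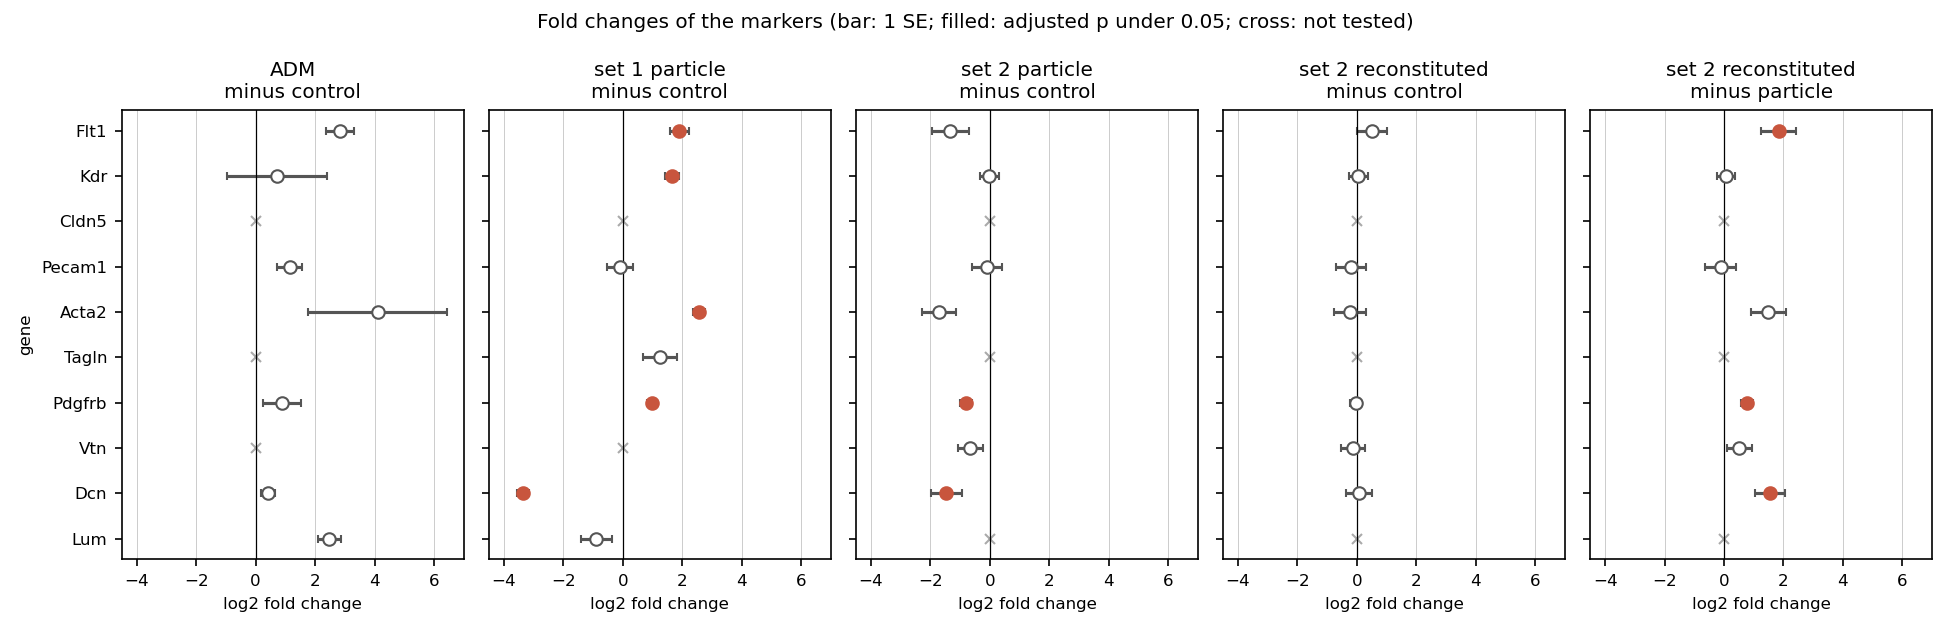
Log2 fold change of each marker in 5 comparisons of neuron groups; bars are 1 SE, filled points have an edgeR adjusted p under 0.05 and crosses mark genes that were not tested. In set 1 Flt1, Kdr, Acta2 and Pdgfrb lie to the right of 0 and Dcn at −3.36, whereas in set 2 Pdgfrb and Dcn lie at −0.81 and −1.46.

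The counts of the related lists in set 2 are to be read against the 12.1% of all genes called lower. Of 9 other fibroblast genes 5 fell, among them Col6a3 (−1.44 ± 0.21) and Col1a1 (−1.10 ± 0.17), and the median was −0.74. Of 3 other mural genes 2 fell, Notch3 (−0.87 ± 0.08) and the pericyte regulator Rgs5 (−0.75 ± 0.19). Mfsd2a (−1.29 ± 0.09), Smtn of the contractile genes (−0.71 ± 0.25) and the proteoglycan Bgn (−0.91 ± 0.18) were the single falls among 9 endothelial, 8 contractile and 5 proteoglycan genes, counts near that share. Of 6 TGF-beta genes 2 fell, Tgfb3 (−0.97 ± 0.21) and Tgfbr2 (−0.86 ± 0.24). Vegfa rose from 63.3 ± 8.85 to 126.3 ± 11.9 CPM (0.99 ± 0.15) and Vegfb by 0.33, with 0 falls among 13. Against the particle, the reconstituted particle had the opposite sign in Vegfa (−1.13 ± 0.15), Notch3 (0.79 ± 0.08), Col6a3 (1.52 ± 0.21) and Tgfbr2 (0.96 ± 0.24), in libraries that share the particle group with the first comparison.

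In set 2, genes of proliferating cells and astrocytes fell with the particle in 8 of 12 and 8 of 11 cases, with 1 rise in each. Their summed levels were 280 to 326 and 1919 to 2048 CPM in the controls and 241 to 256 and 1380 to 1540 CPM with the particle. Other endothelial genes summed to 70.6 to 77.6 CPM in the controls and 39.3 to 44.3 with the particle, and other mural genes to 71.9 to 73.4 and 46.0 to 47.3. Of 9 other endothelial genes tested 1 was called, Mfsd2a, and its part in the endothelial sum was not separated. Microglia genes summed to 9.67 to 12.9 CPM in all 6 libraries, and 1 of them could be tested (0 called). Of 5 choroid plexus genes 0 were called (38.9 to 67.8 CPM summed in the controls, 43.0 to 56.8 with the particle). The part of these cells in the falls of Pdgfrb and Dcn was not tested.

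The particle effects of set 1 and set 2 were compared directly by an interaction term, over genes listed in both tables. The particle effect differed in 4 of 9 members tested, with 31.1% of 17098 genes called (14.8% higher and 16.4% lower in set 2 than in set 1). Set 2 minus set 1 was −3.26 ± 0.62 for Flt1 (edgeR adjusted p = 0.00102), −1.83 ± 0.26 for Pdgfrb (7.7e-05) and −4.32 ± 0.79 for Acta2 (0.0194). For Dcn it was 1.87 ± 0.48 (0.0078), as Dcn was lower with the particle in both sets and by a smaller factor in set 2. Kdr had −1.71 ± 0.59 (0.0909; DESeq2 0.0345; 0.022 without set 2 particle library 2) and Pecam1 −0.04 ± 0.65. The Acta2 call was lost without set 1 control library 2 (adjusted p = 0.0577), set 1 particle library 1 (0.0655) or 2 (0.0781), or set 2 control library 1 (0.0639). The Dcn call was lost without set 2 particle library 2 (0.105). Set and everything else that differed between the 2 experiments cannot be told apart.

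The same contrast in the other genes gave 7 of 9 contractile genes lower in set 2 (Tpm1 −0.77 ± 0.10, Lmod1 −2.98 ± 0.43) and 0 higher. Such counts are to be read against the 14.8% of all genes called higher and the 16.4% called lower. Among 10 other fibroblast genes 7 were lower (Col1a1 −3.26 ± 0.24, Col1a2 −1.59 ± 0.31), and among 7 TGF-beta genes 5 (Tgfbr2 −2.68 ± 0.27, Tgfb3 −2.28 ± 0.28). Of 7 other proteoglycan genes 4 were lower, by adjusted p first Bgn (−2.24 ± 0.27) and Prelp (−1.49 ± 0.19). Of 13 VEGF, angiopoietin and PDGF genes 2 were higher, Vegfa (1.87 ± 0.14) and Vegfb, and 3 were lower (Angpt1, Pdgfb and Pdgfd), counts near those shares. Other mural genes were lower in 3 of 4 cases and other endothelial genes in 3 of 10, with 0 higher. Astrocyte genes were lower in 7 of 11 cases and choroid plexus genes in 2 of 5, also with 0 higher. Of 10 neuron genes 6 were higher. The proliferating-cell genes were lower in 12 of 12 cases and the microglia genes in 4 of 8. In set 2 alone 1 microglia gene passed the filter on low counts, so the interaction term of the others rests on low counts there.

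**Figure D3:**
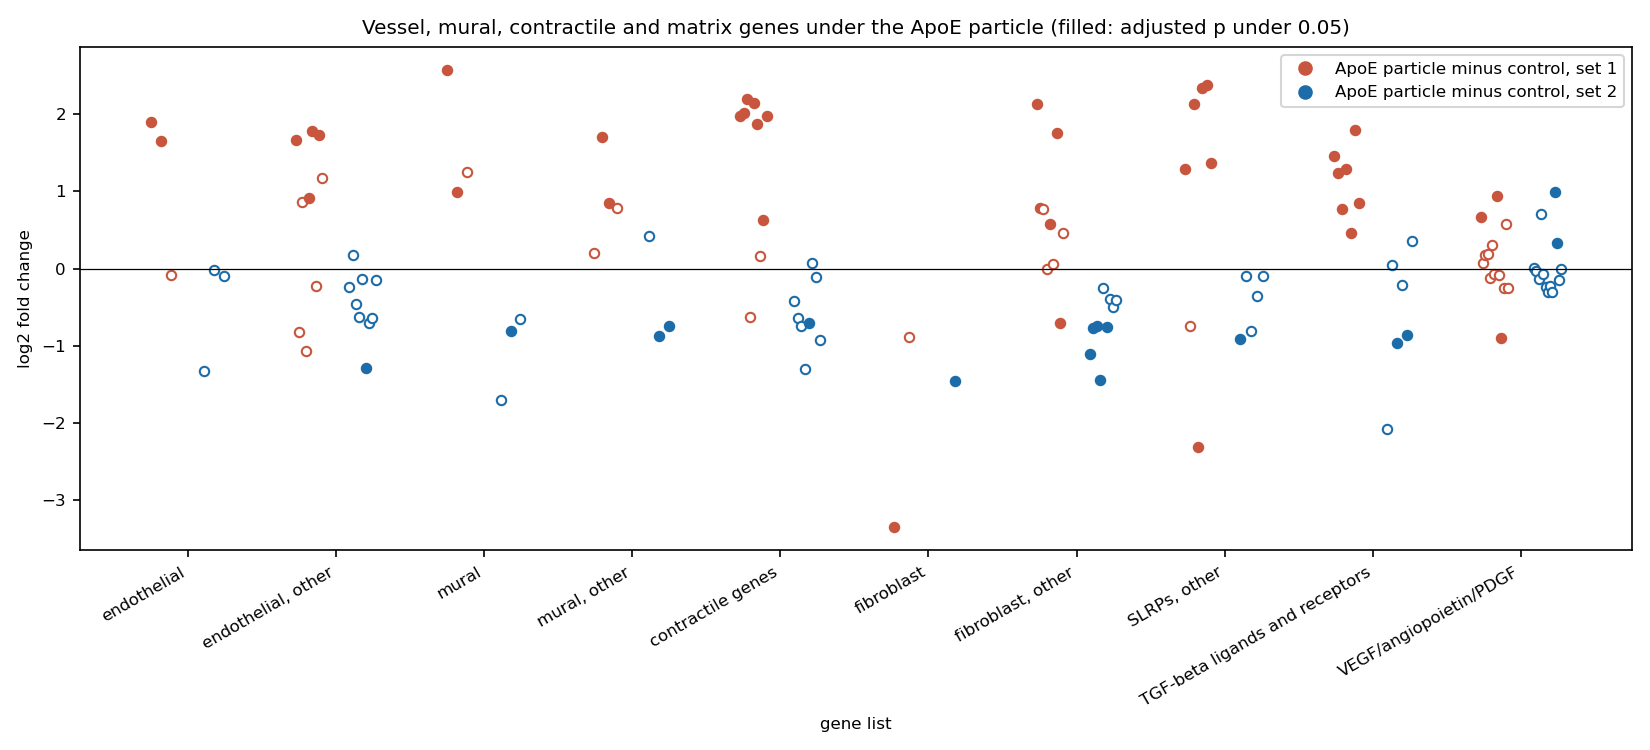
Log2 fold change of each tested gene under the ApoE particle in set 1 and set 2, by gene list; each point is 1 gene and filled points have an edgeR adjusted p under 0.05. Contractile and TGF-beta genes lie mostly above 0 in set 1 and below it in set 2, and Dcn is the lowest point at −3.36.

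With ADM, the 2 libraries of each group differed more than in any other experiment. Of 7 members tested 0 were called, as were 0% of 16191 genes, although 1426 genes had an unadjusted p under 0.05 and DESeq2 called 277 higher and 56 lower. Acta2 had 1.37 and 48.8 CPM in the controls and 12.7 and 853 CPM with ADM, so the groups overlapped (4.10 ± 2.33, edgeR adjusted p = 0.642). Kdr showed the same split, at 2.14 and 16.5 CPM in the controls and 0.684 and 30.1 with ADM (0.72 ± 1.67), and Pdgfrb at 4.88 and 7.47 against 5.27 and 17.8 (0.89 ± 0.65). In each of these genes library 2 was above library 1 in both groups. Compared by library number, Acta2 and Pdgfrb were higher with ADM in both numbers, and Kdr in library 2 only. The labels do not say that the numbers pair the libraries. With library number as a block in the fit, Acta2 passed the threshold, and Kdr and Pdgfrb did not. Without ADM library 2, ADM library 1 was set against both controls and the sign turned: Acta2 had −1.05, Kdr −3.82 and Pdgfrb −0.29. Kdr also turned without control library 1 (−0.12).

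Flt1, Pecam1, Lum and Dcn behaved differently in that the 2 libraries of a group stood close together. Flt1 had 12 and 8 counts in the ADM controls and 70 and 58 with ADM (2.83 ± 0.47, edgeR adjusted p = 0.428; DESeq2 adjusted p = 0.0113). Lum had 9 and 11 counts in the controls and 47 and 52 with ADM (2.47 ± 0.39, edgeR adjusted p = 0.428; DESeq2 adjusted p = 0.0494). The groups did not overlap for either gene, and neither gene passed the edgeR threshold. Pecam1 had 9 and 14 against 20 and 25 counts (1.14 ± 0.43, edgeR adjusted p = 0.559) and Dcn 7.56 and 8.99 against 11.4 and 11.1 CPM (0.42 ± 0.25, edgeR adjusted p = 0.652). Tagln and Vtn had 24 and 21 counts in ADM library 2 and at most 2 in the other 3 libraries, and were not tested.

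ADM library 2 stood apart in the related lists as well. Summed contractile genes were at 1342 CPM there and at 177 to 235 CPM in the other 3 libraries of the experiment, other fibroblast genes at 414 against 41.6 to 68.2, and other small leucine-rich proteoglycans at 185 against 5.30 to 19.2. Col1a1, named after its values were seen, reached 244 CPM in ADM library 2. The median log2 fold change was 2.94 for 8 contractile genes, 2.07 for 9 other fibroblast genes and 2.93 for 4 proteoglycan genes (all genes 0.02), with 0 called in each. The summed proliferating-cell genes were at 553 CPM in ADM library 2 and 234 to 332 in the others, and choroid plexus genes at 68.2 CPM against 3.21 to 17.8. The part of this library in the medians was not tested.

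When the effect of ADM was compared with that of the particle in set 1, 0 of 9 members differed (0% of 17292 genes; 1768 genes with an unadjusted p under 0.05, and 237 called by DESeq2). Dcn was closest, at 3.73 ± 0.30 (edgeR adjusted p = 0.0531; DESeq2 adjusted p = 4.06e-14). It passed without ADM library 1 (0.00255) or ADM library 2 (0.00222), and with the size factors of DESeq2 in edgeR (0.0497). Lum had 3.31 ± 0.67 (edgeR adjusted p = 0.189).

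As a description of how the members varied together, Pearson r of log2(CPM + 0.5) was taken over the 14 neuron libraries after centring within each experiment. These libraries share experiments and treatments, and they include the wide span of ADM library 2. Acta2 and Pdgfrb had r = 0.92, Kdr and Acta2 0.82, and Kdr and Pdgfrb 0.79. Flt1 had 0.53 with Acta2 and 0.08 with Kdr, and Dcn was between −0.35 and −0.15 with the other 4. Among 13113 genes the most alike were Stk17b, Ttyh2 and Myo10 for Acta2 (0.99 each), Gli3, Wwc1 and Ptch1 for Pdgfrb (0.98, 0.98 and 0.97), Hepacam, Cfap36 and Slc39a12 for Kdr (0.98, 0.97 and 0.97), Il1r1, Dusp16 and Ngfr for Flt1 (0.96, 0.96 and 0.96) and Mrgpre, Dnajc6 and Tmem41a for Dcn (0.99, 0.96 and 0.95).

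In hippocampus each group is 1 library, so no difference has a replicate check and no p-value is given. Ratios are log2 of CPM with 0.5 counts added, with an exact 95% binomial interval that covers counting error only, and a gene is described as past the limit at a 1.5-fold ratio where the higher of both libraries has 100 counts or more. The targeted gene Apoe had 1697 CPM in the control library without FC, 2797 in the control library with FC and 1384 in the ApoE shRNA library. The ApoE shRNA library was thus 2.02-fold lower than the control with FC and 1.23-fold lower than the control without FC. Tagln (0 to 3 counts) and Lum (35 to 52 counts) were under the count limit in all 3 libraries.

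Dcn was low in a single library, with 988 counts in the control library without FC, 451 in the control library with FC and 916 in the ApoE shRNA library, or 54.4, 25.4 and 48.5 CPM. The ratio of FC to no FC was −1.10 (95% interval −1.26 to −0.94), and that of ApoE shRNA to control shRNA with FC was 0.93 (0.77 to 1.10). Other fibroblast genes had the reverse order. Between FC and no FC 6 of 9 were past the limit upwards (Col1a1, Col1a2, Col6a3, Islr, Mgp and Pcolce) and 0 downwards, with a median of 0.77. Between ApoE shRNA and control shRNA with FC 7 of 9 were past it downwards, the same 6 and Slc6a13, and 0 upwards (median −1.15). Dcn was thus opposite to the same 6 genes in both comparisons, which share the control shRNA library with FC.

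Between FC and no FC the endothelial genes did not move as a block. In ApoE shRNA against control shRNA with FC all 4 were lower, 2 of them past the limit. Flt1 had 76.4, 97.7 and 42.4 CPM in the order given, with ratios of 0.35 (0.25 to 0.46) for FC against no FC and −1.20 (−1.33 to −1.08) for ApoE shRNA against control with FC. Kdr had 20.8, 12.3 and 9.21 CPM, and Cldn5 39.6, 26.8 and 16.7, each lowest in the ApoE shRNA library and highest without FC. For FC against no FC, Kdr was at −0.76 (−1.004 to −0.513), past the limit, and Cldn5 at −0.56 (−0.73 to −0.40), just inside it; after TMM scaling Cldn5 was at −0.60, past it. For ApoE shRNA against control with FC, Cldn5 was at −0.68 (−0.89 to −0.47) and past the limit, and Kdr at −0.42 (−0.71 to −0.13) was not. Pecam1 had 22.0, 26.6 and 20.2 CPM in the same order and stayed within the limit.

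Mural genes stayed within the limit in all 3 comparisons. Pdgfrb had 30.9, 27.9 and 22.5 CPM, Vtn 74.3, 76.9 and 55.2, and Acta2 12.8, 14.9 and 12.2. The largest of their ratios in size was −0.48 (−0.60 to −0.36) for Vtn in ApoE shRNA against control shRNA.

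Counted over members with at least 100 counts, FC against no FC put 0 of 8 past the limit upwards and 2 downwards (Kdr, Dcn), where 16.7% of 12510 genes were past it, 12.3% higher and 4.46% lower. ApoE shRNA against control shRNA with FC put 1 upwards (Dcn) and 2 downwards (Flt1, Cldn5), against 22.3% of 12474 genes, 4.46% higher and 17.9% lower. ApoE shRNA with FC against control shRNA without FC, which differ in both shRNA and FC, put 3 downwards, Flt1 (−0.85), Kdr (−1.17) and Cldn5 (−1.25), against 7.24% of 11980 genes, 1.14% higher and 6.09% lower. In this last pair Dcn was at −0.17 (−0.30 to −0.03). The 3 comparisons share libraries in pairs and are not independent.

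**Figure D4:**
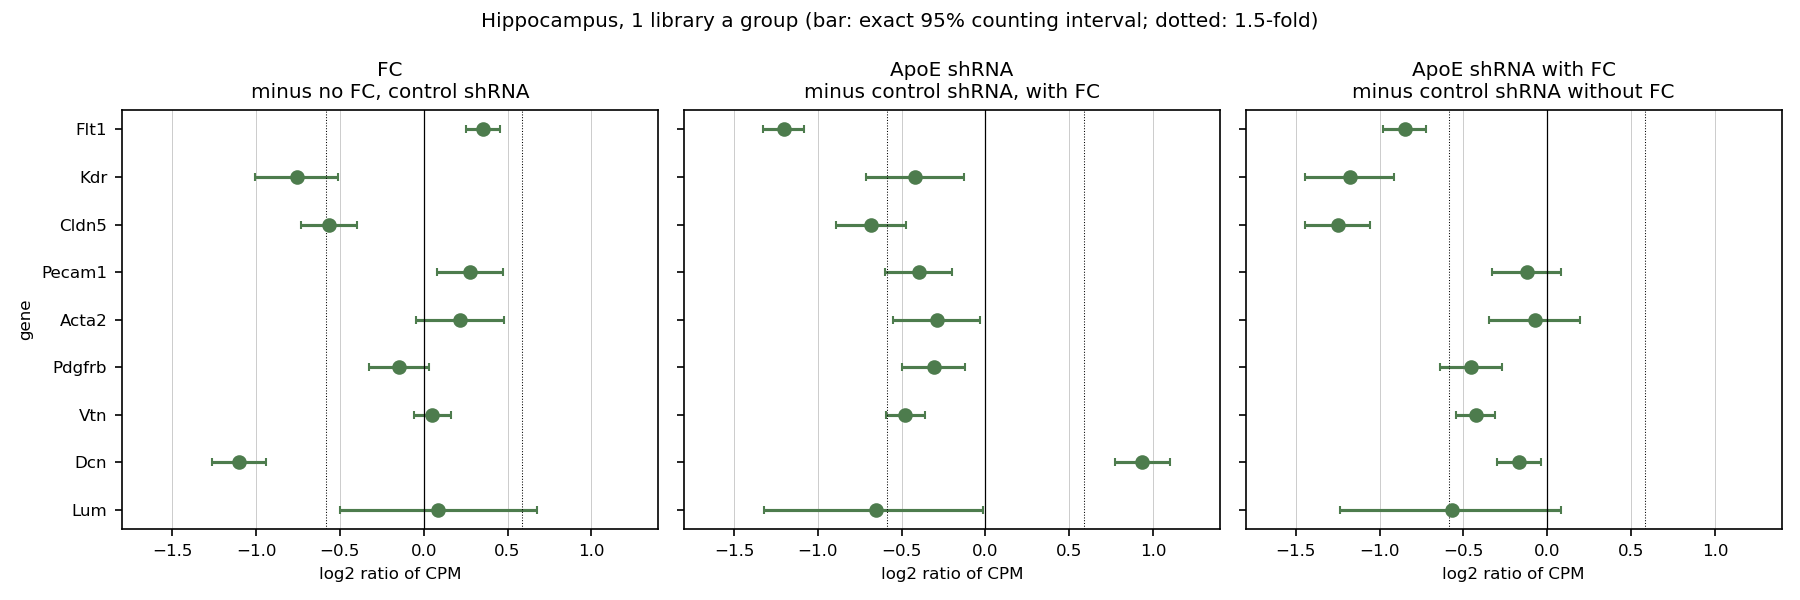
Log2 ratio of CPM for 9 markers in the 3 pairs of hippocampus libraries; bars are exact 95% counting intervals and dotted lines mark 1.5-fold. Dcn is at −1.10 with FC and at 0.93 in ApoE shRNA against control shRNA with FC, while Kdr and Cldn5 are at −1.17 and −1.25 in ApoE shRNA with FC against control shRNA without FC.

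The genes named from lists in hippocampus are those past the limit, where no test chose them. The endothelial list beyond the members differed from Kdr and Cldn5 in the FC comparison. Of 16 other endothelial genes with enough counts 4 were past the limit upwards with FC (Cdh5, Eng, Mfsd2a and Vwf) and 0 downwards, and 6 were past it downwards in ApoE shRNA against control shRNA with FC. TGF-beta genes had 4 of 7 upwards and 1 downwards with FC, and 1 upwards and 4 downwards in ApoE shRNA against control with FC. Microglia genes moved in the same pairs of libraries: 11 of 12 were past the limit upwards with FC and 12 of 12 downwards in ApoE shRNA against control with FC, and their summed level was 432, 1772 and 323 CPM. Choroid plexus genes summed to 23.9, 53.2 and 26.9 CPM, with Ttr, which encodes transthyretin, at 19, 602 and 46 counts. Astrocyte genes summed to 7746, 10445 and 6759 CPM. The part of these cells in the ratios of Flt1, Kdr, Cldn5 and Dcn was not tested.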

How the data were processed

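The authors deposited raw counts per gene in 4 tables (1 per experiment), as whole numbers. Per the labels, 2 μg of Trizol-extracted total RNA per sample went into NEBNext Ultra libraries. HTSeq 0.6.0, HISAT2 2.1.0, Bowtie2 2.2.3 and mm10 appear in the submitters' processing notes; which step used which tool, and the strand setting, is not given in the sources used here. Gene positions in the files were the same as in GENCODE M21 for 95.1% of shared identifiers.

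Neuron groups were compared with edgeR 4.0.16 in R 4.3.3 (filterByExpr, TMM scaling, robust quasi-likelihood F test), with Benjamini-Hochberg adjustment over all genes tested and a threshold of 0.05. The 3 groups of set 2 shared 1 fit, and 1489 set 2 genes with missing values were left out. SE is the log2 fold change divided by the square root of F. The 2 libraries of a neuron group always differed by more than sampling noise (chi-square per degree of freedom 2.63 to 68.1). The code was tested on simulated data. Hippocampus ratios were not tested.

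All members were examined in each comparison, and not each is named in the text. Genes named from a context list were mostly the called genes with the 2 lowest adjusted p. Some lists are given by counts only or left out of a comparison. Likeness was searched for members with a mean of at least 1 CPM. The members and lists were chosen with earlier results of these data known. Alternatives were DESeq2 1.42.0, its size factors in edgeR, library totals only, no filter, a replicate block, only the 2 groups compared, and leaving out each library. For hippocampus they were TMM factors, a prior of 5 counts and no count minimum.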

Additional observations from a re-analysis of the deposited data

Results flagged for a closer look

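Between set 2 and set 1, the effect of the ApoE particle differed by the interaction test in 4 of the 9 markers tested. Over all genes 31.1% of 17098 were called in this contrast. The difference (set 2 minus set 1, log2) was −3.26 ± 0.62 for Flt1, −4.32 ± 0.79 for Acta2, −1.83 ± 0.26 for Pdgfrb and 1.87 ± 0.48 for Dcn. For Flt1, Acta2 and Pdgfrb the particle libraries lay above the controls in set 1 (2 of 2 libraries) and below them in set 2 (2 of 2). For Dcn they lay below the controls in both sets. Within set 2 the falls of Flt1 and Acta2 were not called (edgeR adjusted p = 0.132 and 0.165), while that of Pdgfrb was (edgeR adjusted p = 0.00402). The Flt1 and Pdgfrb differences kept an adjusted p under 0.05 in all 13 alternatives that gave a value, with highest values of 0.00778 and 0.00108; for Acta2 and Dcn the highest adjusted p were 0.124 and 0.105.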

How the results depend on the processing

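The numbers of members called in set 1 (5) and of genes called there kept within 1.5 times of their values in the alternatives that keep all libraries. Of 14 calls of a member in a comparison, 6 held in every alternative and 8 were lost in at least 1. For ADM against control, members called went from 0 to 1 without the filter on low counts, 2 in DESeq2 and 3 with the replicate block (Flt1, Acta2 and Lum, adjusted p 0.023, 0.00814 and 0.0376), and genes called from 0 to 128, 333 and 465. For the ADM effect against the set 1 effect, members called went from 0 to 1 with DESeq2 size factors, without the filter and in DESeq2, and 2 with the block, and genes from 0 to 1, 62, 237 and 502. For the reconstituted particle against control, 8 genes were called without the filter, 1 with the block and 4 with only the 2 groups in the fit. Members called in set 2 went from 2 to 1 with the block, and from 3 to 1 in DESeq2 for reconstituted against ApoE particle. Without the count minimum, 5 members were past 1.5-fold in ApoE shRNA against control shRNA with FC. Scaling by totals alone put Pecam1 at 0.0214 in set 1.

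The replicate block ended the calls of Kdr in set 1 (adjusted p = 0.0732), Dcn in set 2 (0.056) and Acta2 between sets (0.124). Deviations of same-numbered libraries correlated at 0.48 (ADM), 0.02 (set 1) and −0.08 to 0.04 (set 2), so same-numbered ADM libraries deviated together. The labels tie no number to a shared culture or batch, and with 2 numbers per comparison the data do not settle whether they pair the libraries.

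Leaving out 1 library at a time, genes called ranged from 3521 (without set 1 particle 2) to 7610 in set 1, 2297 (without control 1) to 3836 in set 2, 1 to 4 for reconstituted against control, 3492 (without set 1 particle 2) to 6245 between sets, 0 to 641 (without ADM 1) for ADM and 0 to 555 for ADM against set 1. Members called ranged from 0 to 2 for the particle and 0 to 3 for reconstituted against particle in set 2, and 0 to 1 for ADM against set 1. A lone library was assumed to vary like those of the other groups. Log2 values that changed sign ranged, for ADM, from −3.82 to 2.83 (Kdr), −1.05 to 8.29 (Acta2) and −0.29 to 1.505 (Pdgfrb). In set 1 Pecam1 ran from −0.59 to 0.27. In set 2, particle against control gave −0.60 to 0.38 (Kdr) and −0.31 to 0.17 (Pecam1), and reconstituted against particle −0.34 to 0.64 and −0.43 to 0.14. Reconstituted against control gave −0.14 to 0.23 (Kdr), −0.52 to 0.0544 (Pecam1), −0.57 to 0.24 (Acta2), −0.12 to 0.0497 (Pdgfrb) and −0.41 to 0.46 (Dcn). Between sets the ranges were −0.39 to 0.46 (Pecam1) and −0.79 to 1.76 (Lum). For ADM against set 1 they were −5.52 to 1.15 (Kdr), −3.67 to 5.68 (Acta2), −4.92 to 2.70 (Tagln), −1.31 to 0.48 (Pdgfrb) and −1.15 to 2.95 (Vtn). The cause was not tested. Depth limited Flt1 (at most 70 counts per neuron library), Pecam1, Tagln, Vtn and Lum, and Dcn in set 2.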
